A study of Mus musculus with 4 samples.

Results

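The 9 genes of calcium-binding S100 and annexin proteins described here were measured in single-cell RNA libraries of sorted mouse heart phagocytes: S100a4, S100a6, S100a8, S100a9, S100a10, S100a11, Anxa1, Anxa2 and Anxa5. They were taken by symbol, and they make 9 of the 32285 genes listed. There were 4 groups with 1 library each, and each library came from the pooled hearts of 5 adult mice of both sexes. The first group received carboplatin and then AngII with PE, the second PBS and then AngII with PE, the third carboplatin and then saline, and the fourth PBS and then saline. Carboplatin, a platinum drug that crosslinks DNA, was given intraperitoneally at 45 mg/kg, 2 times a week for 2 weeks, with PBS as its control. All mice then recovered for 4 weeks and carried an osmotic minipump for 7 days, which delivered angiotensin II (AngII) at 1.5 mg/kg per day and PE at 50 mg/kg per day, or saline. The sort took CD64+ cells that were CD45+, CD11b+, Ly6G- and low for Ly6C, and 10000 cells were loaded per group. The strain, the ages and the number of mice of each sex in a pool are not given in the sources used here. With 1 library per group there is no test and no p-value: ratios carry 95% intervals that cover counting error only, and spread between mice cannot be told apart from the treatments.

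S100 proteins are small EF-hand proteins that change shape when they bind calcium and then bind target proteins. Annexins bind phospholipid membranes in the presence of calcium, and several of them pair with an S100 partner, as Anxa2 does with S100a10 and Anxa1 with S100a11. S100a8 and S100a9 together form calprotectin, the main cytosolic calcium-binding complex of neutrophils, which signals through Tlr4 and Ager when released. S100a4 and S100a6 are best known for binding cytoskeletal and annexin targets in motile cells, Anxa1 is a glucocorticoid-responsive ligand of formyl peptide receptors, and Anxa5 binds exposed phosphatidylserine.

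On mm10, the 6 S100 members and Anxa5 lie on chromosome 3, Anxa2 on chromosome 9 and Anxa1 on chromosome 19. S100a4 (chr3:90603771-90606045) and S100a6 (chr3:90612882-90624181) are close together on the forward strand, and S100a11 (chr3:93520488-93526287) and S100a10 (chr3:93555080-93564643) make another close pair. S100a8 (chr3:90668978-90670035, forward) and S100a9 (chr3:90692632-90695721, reverse) lie near S100a6. Upstream sequence was in the RefSeq table (GRCm38.p6) for 8 of the 9 members. It is shown for 2 pairs whose levels are described together below: S100a11 with Anxa2, and S100a4 with S100a6. Each run covers bases 250 to 64 before the RefSeq start, 187 bases in all, read 5′ to 3′ on the gene's strand. Capitals mark a match to TGANTCA, the AP-1 motif, or to GGGCGG, the GC box.
S100a11, chr3:93520246-93520432 (+): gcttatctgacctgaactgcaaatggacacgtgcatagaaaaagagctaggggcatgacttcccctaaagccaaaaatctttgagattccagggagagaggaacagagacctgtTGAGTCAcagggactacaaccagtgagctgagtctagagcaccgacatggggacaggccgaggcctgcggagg
Anxa2, chr9:69453433-69453619 (+): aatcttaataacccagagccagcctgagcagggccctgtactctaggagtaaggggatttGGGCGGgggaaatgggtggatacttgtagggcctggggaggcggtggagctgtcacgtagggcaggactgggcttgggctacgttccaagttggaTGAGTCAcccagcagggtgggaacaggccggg
S100a4, chr3:90603520-90603706 (+): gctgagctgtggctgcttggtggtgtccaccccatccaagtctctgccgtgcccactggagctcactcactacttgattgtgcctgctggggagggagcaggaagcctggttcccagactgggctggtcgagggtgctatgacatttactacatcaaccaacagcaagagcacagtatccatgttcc
S100a6, chr3:90612644-90612830 (+): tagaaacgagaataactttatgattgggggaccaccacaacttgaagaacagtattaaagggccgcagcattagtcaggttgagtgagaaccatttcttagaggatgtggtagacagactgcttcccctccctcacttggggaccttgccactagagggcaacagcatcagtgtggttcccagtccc

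The S100a11 and Anxa2 windows each held the letters TGAGTCA, beginning 136 bases before the start in S100a11 and 95 bases before it in Anxa2. Of 32851 mouse promoter windows of the same length, 5.14% held TGANTCA on either strand and 22.2% held GGGCGG. The S100a4 and S100a6 windows held neither, nor TATAAA, the TATA box motif, which 8.62% of windows held. The windows stop 64 bases before the start and leave out the nearer bases, where a TATA box would lie. TTGCNNAA, the C/EBP motif, was in 7.69% of windows and, among the 8 members, in those of S100a9 and Anxa1. These matches describe letters only.

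The deposited matrices held 27968 barcodes, against 38066 stated by the series text, and its stated limits left 17312 cells here, against 17438 there. Kept cells numbered 5669 in carboplatin AngII/PE, 3849 in PBS AngII/PE, 3484 in carboplatin saline and 4310 in PBS saline, with median depths between 10593 and 12737 unique molecular identifiers (UMIs). The share of barcodes kept was lowest in carboplatin saline, at 49.4%, where 43.2% of barcodes were over the mitochondrial limit. Among kept cells, 34 barcode sequences occurred in more than 1 library. Clusters were rebuilt with all S100 and annexin genes left out of the clustering genes and were named from marker genes. Macrophage-like cells numbered 3919, 2125, 1000 and 1926 in that order of groups. They made 69.1, 55.2, 28.7 and 44.7% of kept cells, and further clusters with macrophage markers, which stayed unnamed, held 16.3, 24.6, 37.2 and 28.2%. The macrophage-like class had a different makeup under each pump: its resident-type cluster held 1.17 and 4.00% of it in the carboplatin and PBS libraries with AngII/PE, and 82.0 and 91.2% in those with saline. Levels are CPM, that is, UMIs summed over the cells of a class in a library and scaled to a common total. A level per class cannot separate more cells with the transcript from more transcript per cell.

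Among named classes, each of the 9 members had its highest mean level in a class other than the macrophage-like cells. S100a4 was highest in type 2 dendritic cell-like cells, with 1202 CPM in carboplatin AngII/PE, 1017 in PBS AngII/PE, 860 in carboplatin saline and 1057 in PBS saline. Fibroblast-like cells, for which S100a4 is often used as a marker, had only 75.5, 31.0, 50.1 and 76.7 CPM of it in the same order of libraries. The dendritic and fibroblast ranges of S100a4 did not overlap.

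S100a6 was high in fibroblast-like cells, at 1767, 1773, 2196 and 2230 CPM, and in type 2 dendritic cell-like cells, at 1576, 1154, 1293 and 1509 CPM, in the same order. Fibroblast-like cells were above dendritic cell-like cells in all 4 libraries. S100a10, the Anxa2 partner, had 591, 373, 598 and 799 CPM in type 2 dendritic cell-like cells, and 636, 895, 430 and 809 CPM in cycling cells, so these 2 classes overlapped. It was low in non-classical monocyte-like cells, at 60.1 CPM in carboplatin saline and 51.3 CPM in PBS saline. S100a4 had 477 and 581 CPM in non-classical monocyte-like cells of the same 2 libraries. The AngII/PE libraries held too few of these monocytes for a level.

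S100a11, the Anxa1 partner, had 822, 676, 604 and 625 CPM in type 2 dendritic cell-like cells and 730, 608, 634 and 670 CPM in fibroblast-like cells, which overlapped. Neutrophil-like cells reached 20 cells in PBS AngII/PE alone, with 2086 CPM of S100a11, 2372 CPM of S100a6 and 586 CPM of Anxa1. For S100a11 and S100a6 this was above every other named class with a level, in a single library of 23 such cells. NK cell-like cells, with a level in carboplatin saline alone, had 926 CPM of S100a10 and 626 CPM of Anxa2. These were the highest means of the partners among named classes. Unnamed clusters were not ranked. Unnamed cells outside the macrophage-marker clusters, 22 of them in PBS saline, held 598 S100a10 and 478 Anxa2 UMIs over all libraries.

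Among the annexins, Anxa1 was highest in fibroblast-like cells, with 549, 446, 753 and 798 CPM across the 4 libraries, and type 2 dendritic cell-like cells had 327, 360, 286 and 393 CPM. Anxa2 did not separate those classes, at 542, 432, 535 and 741 CPM in dendritic cell-like and 571, 470, 494 and 521 CPM in fibroblast-like cells. B cell-like cells had 108, 60.3, 83.6 and 74.6 CPM of Anxa2, below both in every library. Anxa5 had 632, 509, 704 and 718 CPM in fibroblast-like cells, the highest mean of a named class. Macrophage-like cells had 580, 531, 460 and 430 CPM of it, above fibroblast-like cells in PBS AngII/PE alone. The NK cell-like cells of carboplatin saline had 21.0 CPM.

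**Figure D1:**
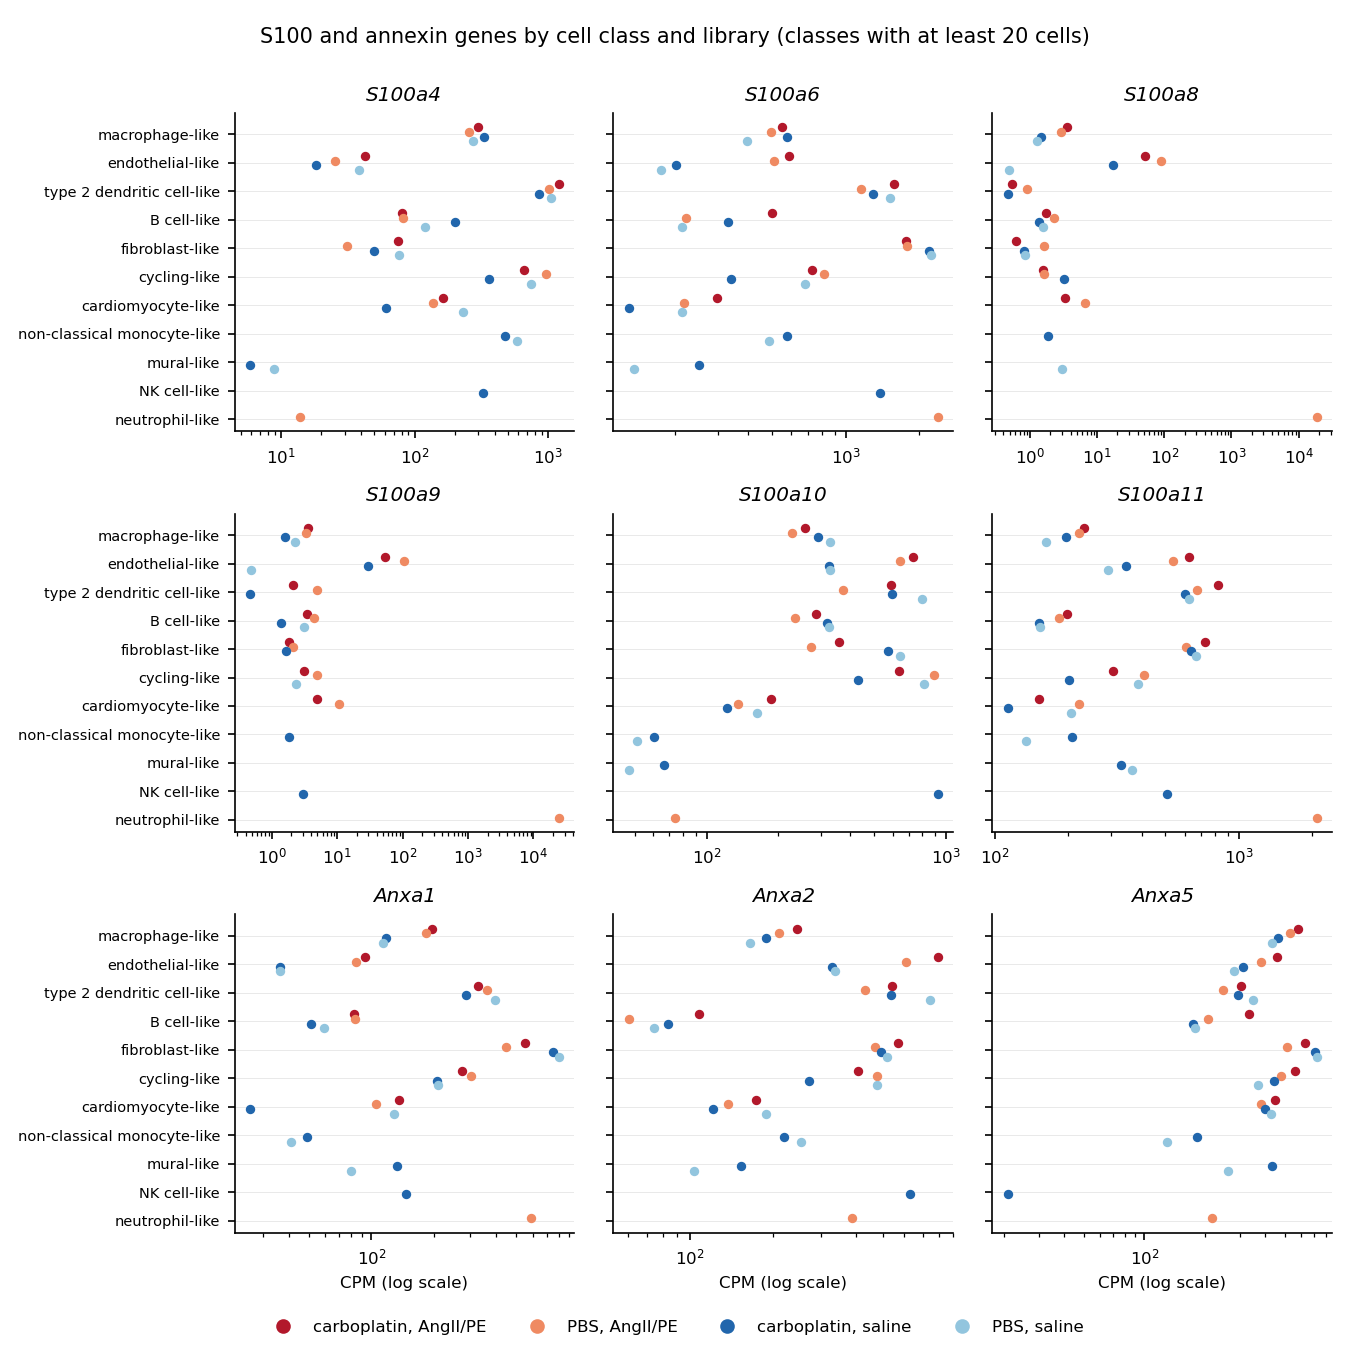
Level of each member, in CPM of summed UMIs on a log axis, by named cell class. There is 1 point per library and class that held at least 20 cells, and points at 0 are not drawn. S100a8 and S100a9 stand far above all other classes in neutrophil-like cells, whereas S100a4 is highest in type 2 dendritic cell-like cells.

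S100a8 and S100a9 were neutrophil transcripts in these libraries, although the sort excluded Ly6G+ cells. The 70 neutrophil-like cells carried 12356 S100a8 UMIs, or 22140 CPM (95% Poisson interval 21751 to 22533), and 16394 S100a9 UMIs, or 29375 CPM. Macrophage-like cells had 3.55, 2.85, 1.43 and 1.27 CPM of S100a8 and 3.64, 3.38, 1.61 and 2.24 CPM of S100a9, in the order carboplatin AngII/PE, PBS AngII/PE, carboplatin saline and PBS saline. Both genes were thus lower by several orders of size in macrophages than in neutrophils, and neither reached the 10 CPM needed for a comparison. After each cell was thinned to 2000 UMIs, S100a8 was seen in 0.642, 0.616, 0.200 and 0.156% of macrophage-like cells. In endothelial-like cells, which should lack it, the shares were 0.943, 1.77 and 0.682% in the first 3 libraries. PBS saline had 0 of 490 such cells, which allows a share of up to 0.612%. The median depths before thinning were 14026, 14935, 16411 and 13535.5 UMIs in macrophage-like cells and 9943.5, 9909, 6398.5 and 5869 UMIs in endothelial-like cells. The macrophage shares of S100a8 were below the endothelial ones in the 3 libraries with a value, and were read as background. The endothelial shares rest on few cells, so this order is uncertain.

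In PBS saline and carboplatin AngII/PE, part of this low signal sat in single cells. In PBS saline, 1 macrophage-like cell held 16 of the 35 S100a8 UMIs and 48 of the 62 S100a9 UMIs, and 8 of 10 neutrophil markers were detected in it. In carboplatin AngII/PE, 1 cell held 57 of 201 S100a8 UMIs and 50 of 206 S100a9 UMIs, with 7 of 10 neutrophil markers. The signal was more scattered in the other libraries. The richest cell held 2 of 92 S100a8 and 1 of 109 S100a9 UMIs in PBS AngII/PE, and 4 of 24 and 0 of 27 in carboplatin saline. Without the highest cell of each library, S100a8 was at 2.54, 2.79, 1.19 and 0.688 CPM and S100a9 at 2.76, 3.29, 1.49 and 0.507 CPM. Single endothelial-like cells held 97.0, 95.4 and 92.9% of that class's S100a8 UMIs in carboplatin AngII/PE, PBS AngII/PE and carboplatin saline, with 10, 8 and 9 of 10 neutrophil markers detected. The doublet caller marked 0.283% of cells, too few to have worked, and no doublets were removed.

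In macrophage-like cells, 7 members passed the minimum mean level of 10 CPM, as did 8488 genes in all. A gene is called higher or lower where it differs by at least 1.5-fold. Anxa1 was the member called in both comparisons of AngII/PE with saline. It had 196 CPM in carboplatin AngII/PE and 184 CPM in PBS AngII/PE, against 118 CPM in carboplatin saline and 114 CPM in PBS saline, so both pressor libraries were above both saline libraries. The fold was 1.66 (1.59 to 1.75) after carboplatin and 1.61 (1.54 to 1.68) after PBS. The call after PBS was lost at the finer clustering resolution of 1.2, where the log2 ratio was 0.53, in cells called male from sex-linked transcripts at 0.50, in all kept cells at 0.38 and in all phagocytes, with monocyte-, dendritic- and cycling-like cells added, at 0.41. After PBS the log2 ratio was 0.08 within the resident-type cluster alone and -0.73 within a cluster with MHC class II genes. The call after carboplatin was lost in cells called female, in all phagocytes and in that MHC class II cluster. In each comparison 1 of 7 members was called higher and none lower, where 7.59% of all genes were called higher and 7.53% lower after carboplatin, and 8.24% higher and 9.14% lower after PBS.

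The other annexins and S100a11 lay in the same order without reaching the fold. Anxa2 had 244 and 211 CPM with AngII/PE after carboplatin and PBS, against 189 and 165 CPM with saline after carboplatin and PBS. Anxa5, the phosphatidylserine binder, had 580 and 531 against 460 and 430 CPM, and S100a11 had 231 and 221 against 195 and 162 CPM, in the same order. For each of these 3 genes the pressor and saline libraries did not overlap, and their folds lay between 1.18 and 1.36. S100a10 lay the other way, at 257 and 229 CPM against 293 and 330 CPM; its log2 ratio was -0.19 after carboplatin and -0.53 after PBS. The levels of S100a4 were 300 and 256 against 332 and 276 CPM, and of S100a6 551 and 494 against 578 and 397 CPM, so for both genes the 2 pumps overlapped. The macrophage marker sum was 21474 and 18751 CPM with AngII/PE against 16504 and 16954 CPM with saline, type 2 dendritic cell markers 94.4 and 113 against 644 and 658 CPM, and fibroblast markers 298 and 266 against 168 and 127 CPM. Their part in these values was not tested.

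**Figure D2:**
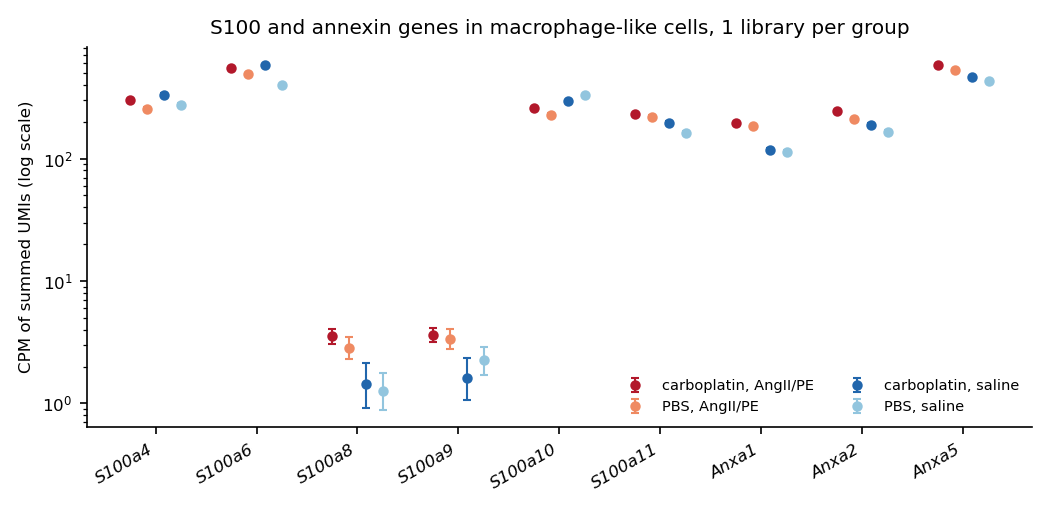
CPM of the members in macrophage-like cells of each library, with 95% Poisson intervals for counting error only; each library is a pool of 5 mice. Anxa1 is at 196 and 184 CPM in the AngII/PE libraries and at 118 and 114 CPM in the saline libraries, and S100a10 runs the other way.

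Between carboplatin and PBS, no member was called in all macrophage-like cells under either pump. S100a6 came nearest under saline, with 578 CPM after carboplatin against 397 CPM after PBS, a fold of 1.46 (1.42 to 1.50). The others there ran between a log2 ratio of -0.17 for S100a10 and 0.27 for S100a11, where 1.65% of all genes were called higher and 2.17% lower. Under AngII/PE all 7 log2 ratios were between 0.07, for S100a11, and 0.23, for S100a4, where 0.459% of genes were called higher and 0.978% lower. The carboplatin log2 ratio under AngII/PE minus that under saline was -0.38 (-0.43 to -0.34) for S100a6 and 0.34 (0.28 to 0.40) for S100a10, differences with no replicate check.

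The carboplatin ratios of S100a4, S100a6 and S100a10 were also taken in cells of each sex. Cells were called female or male from sex-linked transcripts; the macrophage-like cells with a call were 49.4, 29.2, 55.7 and 44.8% female in carboplatin AngII/PE, PBS AngII/PE, carboplatin saline and PBS saline. In female-called cells S100a4 had 301 CPM in carboplatin AngII/PE, against 177 CPM in PBS AngII/PE, and 382 CPM in carboplatin saline, against 254 CPM in PBS saline. S100a6 had 540 against 320 CPM and 625 against 367 CPM in the same pairs. Both were higher after carboplatin under both pumps, by 1.70-fold (1.60 to 1.80) and 1.50-fold (1.43 to 1.58) for S100a4 and by 1.68-fold (1.61 to 1.76) and 1.70-fold (1.63 to 1.77) for S100a6. S100a4 under saline was only just past the 1.5-fold line. S100a10 had 242 against 160 CPM under AngII/PE, 1.52-fold (1.43 to 1.61), and 332 against 285 CPM under saline. S100a11 had 198 against 197 CPM under AngII/PE and 205 against 147 CPM under saline.

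In male-called cells S100a4 had 305 CPM in carboplatin AngII/PE, against 296 CPM in PBS AngII/PE. It had 292 CPM in carboplatin saline, against 331 CPM in PBS saline. S100a6 had 558 against 573 CPM and 551 against 472 CPM in the same pairs. S100a10 had 278 against 262 CPM under AngII/PE and was lower under saline, with 249 against 401 CPM, a log2 ratio of -0.69. S100a11 had 264 against 231 CPM under AngII/PE and 191 against 185 CPM under saline. Of 7 members, 3 were called higher in female-called cells under AngII/PE, where 1.39% of genes were called higher and 1.38% lower, and 2 under saline, where 1.76% were called higher and 2.52% lower. In male-called cells none was called under AngII/PE, where 0.495% of genes were called higher and 1.48% lower, and S100a10 was called lower under saline, where 6.43% were called higher and 6.82% lower. The difference between the sexes was not tested, and the number of female and male mice behind each value is not known.

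Between the pumps, Anxa1 was furthest above saline in male-called cells after carboplatin, with 240 CPM in carboplatin AngII/PE against 109 CPM in carboplatin saline, 2.19-fold (2.03 to 2.38). Anxa2 had 264 against 168 CPM in the same cells, and these 2 of 7 were called higher, where 9.91% of genes were called higher and 8.45% lower. In female-called cells after carboplatin Anxa1 had 155 against 131 CPM, and 0 of 7 members were called, where 7.62% of genes were called higher and 8.29% lower. After PBS the sexes were closer: Anxa1 had 154 CPM in PBS AngII/PE against 93.9 CPM in PBS saline in female-called cells, and 193 against 137 CPM in male-called cells. Anxa1 was the 1 of 7 called higher in female-called cells, where 9.01% of genes were, and 0 of 7 in male-called cells, where 12.3% were. S100a10, the 1 of 7 called lower after PBS in each sex, had 160 against 285 CPM in female-called cells, where 9.61% of genes were called lower, and 262 against 401 CPM in male-called cells, where 12.1% were.

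**Figure D3:**
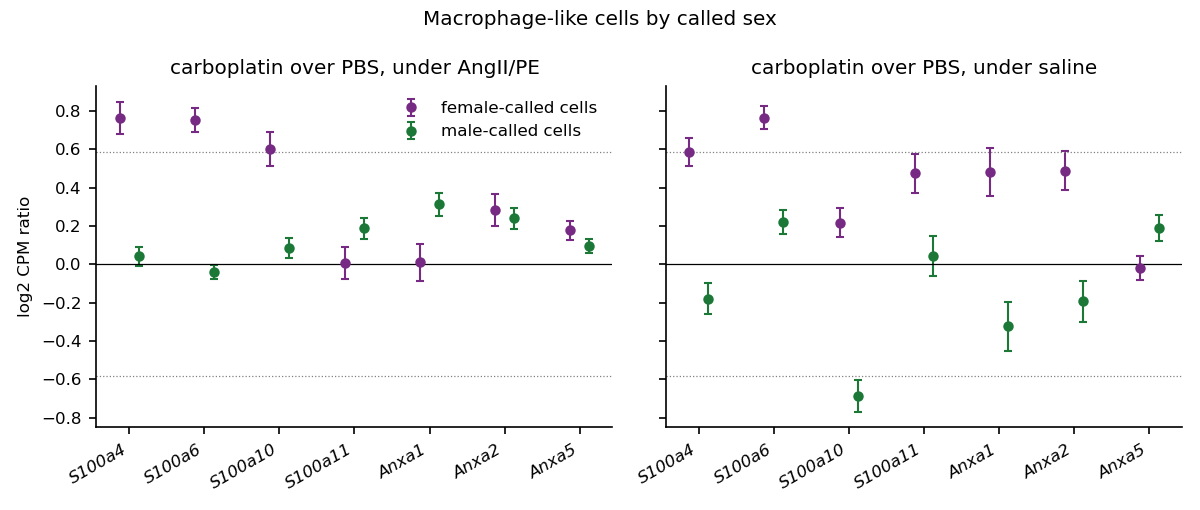
Log2 ratio of carboplatin over PBS for 7 members in macrophage-like cells called female or male, under each pump, with 95% intervals for counting error only. In cells called female S100a4 is at 0.77 under AngII/PE and 0.59 under saline, and in cells called male at 0.04 and -0.18.

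The same ratios were taken within clusters, chosen after the levels had been seen. In the resident-type cluster of female-called cells under saline, 404 cells after carboplatin against 612 after PBS, 5 of 7 members were called higher, where 2.17% of genes were. S100a6 had 564 against 296 CPM, 1.90-fold, and Anxa2 had 200 against 113 CPM, 1.76-fold (1.63 to 1.91). Anxa1 had 121 against 73.6 CPM, S100a11 188 against 120 CPM and S100a4 323 against 207 CPM. These 5 were higher together, while S100a10 at 1.22-fold and Anxa5 at 1.01-fold were not called. In the male-called cells of that cluster none was called higher, where 7% of genes were, and S100a10 was called lower, with 248 against 392 CPM, where 7.29% were.

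Under AngII/PE, female-called cells of cluster 1, the largest macrophage cluster of carboplatin AngII/PE, had S100a4 at 388 CPM after carboplatin against 215 CPM after PBS and S100a6 at 644 against 342 CPM. These were 2 of 7 called higher, where 3.44% of genes were. In the female-called MHC class II cluster S100a4, S100a6 and S100a10 were called, 3 of 7 where 2.89% of genes were, S100a10 with 191 against 102 CPM. The female-called inflammatory cluster differed: S100a4 had 218 against 219 CPM there, and 0 of 7 members were called, where 4.94% of genes were called higher and 4.62% lower. In male-called cells of the same 3 clusters no member was called, where 1.26, 1.63 and 1.35% of genes were called higher. In the interferon cluster, all cells together, S100a4 had 362 CPM after carboplatin against 194 CPM after PBS and was the 1 of 7 called, where 7.05% of genes were called higher and 6.14% lower.

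In the MHC class II cluster most members were lower with AngII/PE than with saline after PBS. S100a4 had 283 CPM in its 897 cells of carboplatin AngII/PE and 235 CPM in its 614 cells of PBS AngII/PE, against 463 CPM in 102 cells of carboplatin saline and 652 CPM in 75 cells of PBS saline. S100a6 had 522 and 406 against 789 and 1018 CPM, and S100a10 212 and 143 against 248 and 339 CPM. Each was below both saline libraries in both pressor libraries. After PBS, 6 of 7 members were called lower with AngII/PE than with saline, where 9.6% of genes were, and Anxa5 was not. Anxa1, with 148 CPM in PBS AngII/PE against 245 CPM in PBS saline, ran there against its order in all macrophage-like cells. After carboplatin it kept that order, with 170 CPM in carboplatin AngII/PE against 137 CPM in carboplatin saline, 1.24-fold, as did Anxa2, with 203 against 175 CPM. S100a4 and S100a6 were the 2 of 7 called lower after carboplatin, where 7.4% of genes were.

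Under saline, S100a4, S100a6, S100a11, Anxa1 and Anxa2 were lower after carboplatin than after PBS in the MHC class II cluster. That was against their order in the whole class. S100a6 had 789 CPM in carboplatin saline against 1018 CPM in PBS saline there, 0.775-fold. S100a4 had 463 against 652 CPM and S100a11 293 against 376 CPM. S100a10 was lower both there and in the whole class, and Anxa5 had 475 against 463 CPM in the cluster. Anxa1 had 137 against 245 CPM, a log2 ratio of -0.84, and Anxa2 175 against 383 CPM, a log2 ratio of -1.13. These annexins were 2 of 7 called lower, where 8.15% of genes were called lower and 8.01% higher, in 102 cells against 75. In the resident-type cluster, S100a6 had 512 CPM after carboplatin and saline, against 338 CPM after PBS and saline, and was the 1 member called, where 1.79% of genes were called higher and 2.13% lower.

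Within each library, several members differed between cells with and without a marker of macrophage origin. Cells with at least 1 Lyve1 UMI, a resident macrophage marker, were set beside cells with none; there were 305, 130, 352 and 945 such cells in carboplatin AngII/PE, PBS AngII/PE, carboplatin saline and PBS saline. S100a4 was 2.88, 2.20, 2.07 and 1.997 times as high in Lyve1+ as in Lyve1- cells, and S100a10 2.27, 2.31, 2.05 and 1.98 times. S100a6 was 2.33, 1.56, 1.63 and 1.67 times as high. Anxa2 was 1.62, 1.31, 1.43 and 1.25 times as high, and these 4 were higher in Lyve1+ cells in all 4 libraries. Anxa1 was at 1.19, 1.02, 1.53 and 1.36, with an interval that included 1 in PBS AngII/PE (0.923 to 1.13). Anxa5 was not, at 0.980, 0.912, 0.983 and 0.988, nor S100a11, at 1.03, 0.951, 0.900 and 0.716. By cluster, the order was not the same in every library. S100a4 had 419, 290, 289 and 241 CPM in the resident-type cluster, against 283, 235, 463 and 652 CPM in the MHC class II cluster. S100a6 had 766, 421, 512 and 338 against 522, 406, 789 and 1018 CPM. Both were higher in the resident-type cluster with AngII/PE, where it held 46 and 85 cells, and lower in it with saline.

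Ccr2, a receptor of recruited monocytes and their progeny, split the members otherwise. S100a4 was 1.35, 1.81, 1.65 and 2.01 times as high in Ccr2+ as in Ccr2- cells, and S100a6 1.199, 1.30, 1.46 and 2.14 times, so both were higher in Lyve1+ and in Ccr2+ cells. S100a11 was 1.26, 1.24, 1.47 and 1.84 times as high, whereas S100a10 was at 1.01, 0.925, 1.13 and 1.10. Anxa2 was at 1.03 and 1.04 in the AngII/PE libraries after carboplatin and PBS, and at 1.32 and 2.03 in the saline libraries after carboplatin and PBS. Anxa1 was at 1.03, 1.04, 1.35 and 1.91. Anxa5 again stayed near 1, between 0.885 and 1.04. The depth of a cell bears on whether a UMI of a marker is seen in it, and these splits were made after the data had been seen.

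**Figure D4:**
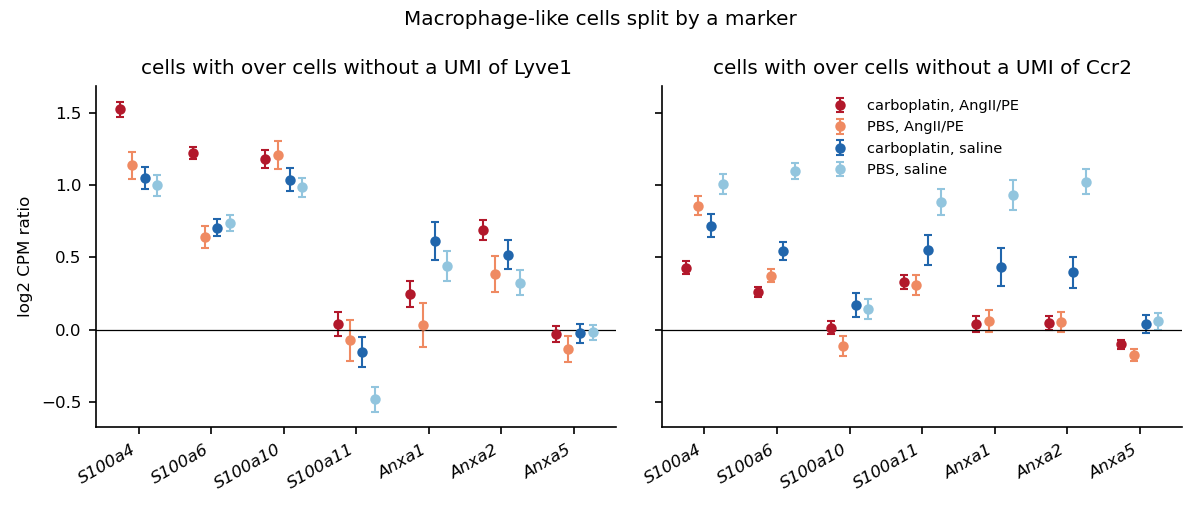
Ratio of CPM in macrophage-like cells with a Lyve1 or Ccr2 UMI to CPM in cells without one, for 7 members in each library. S100a4 is between 1.997 and 2.88 in the Lyve1 split and between 1.35 and 2.01 in the Ccr2 split, and Anxa5 is near 1 in both.

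S100a4 was unevenly spread over macrophages. The tenth of cells richest in it held 64.4, 67.1, 53.3 and 65.0% of its UMIs in the 4 libraries, against 26.5, 28.2, 24.7 and 27.8% for the cells richest in Anxa5. S100a4-rich cells were then taken otherwise, as the tenth with most S100a4 per UMI of the cell rather than most S100a4 UMIs. In these cells S100a6 was 5.78, 5.76, 4.92 and 7.60 times as high as in the other cells. Anxa2 was 3.09, 2.72, 3.22 and 5.10 times as high. Anxa5 was 1.29, 1.23, 1.32 and 1.21 times as high, the smallest of the 6 other members measured there. Within the macrophage-like class, S100a4 and its neighbour S100a6 were thus concentrated in the same cells, and Anxa5 was spread widely. The S100a4-rich cells had median depths of 17398, 17941, 18242.5 and 15937 UMIs, against 13786, 14669, 16264 and 13271 UMIs in the others.

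Endothelial-like cells, which came through the sort in numbers of 352, 304, 556 and 599, had large differences between the pumps in most members. Anxa2 had 791 CPM in carboplatin AngII/PE and 610 CPM in PBS AngII/PE, against 328 CPM in carboplatin saline and 335 CPM in PBS saline. S100a10 had 728 and 646 against 324 and 327 CPM, and S100a6 had 587 and 507 against 202 and 176 CPM. S100a11 had 628 and 539 against 344 and 291 CPM, and Anxa1 92.8 and 84.1 against 36.3 and 36.4 CPM. All 5 genes were above both saline libraries in both pressor libraries, with no overlap. The makeup of the class differed between the pumps: at the finer resolution of 1.2, its cluster 6 held 85 and 87 cells with AngII/PE against 434 and 533 with saline, and its cluster 12 held 230 and 194 against 21 and 12.

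Within the finer cluster 6, a setting chosen after seeing the data, 5 of 7 members were called higher with AngII/PE after carboplatin, where 14.2% of genes were called higher and 16.4% lower. After PBS 3 of 7 were called higher, where 11.4% were called higher and 13.8% lower. S100a6 had 795 and 599 CPM with AngII/PE against 197 and 170 CPM with saline there, and Anxa1 84.7 and 68.2 against 32.0 and 34.2 CPM. Both were called after each pretreatment, as was S100a4, with 151 and 89.0 against 16.7 and 38.5 CPM. The finer cluster 12, which held most endothelial-like cells with AngII/PE, had only 14.8 and 7.50 CPM of S100a4 in those libraries. Median depths with AngII/PE were 5248 and 5853 UMIs in cluster 6 and 12216 and 12163 UMIs in cluster 12. Anxa2 had 634 and 390 against 310.5 and 326 CPM and S100a11 615 and 366 against 310.5 and 278 CPM, and both were called after carboplatin alone. S100a10 was called in neither, with 432 and 389 against 294 and 318 CPM. The part of this makeup in the values of the whole class was not tested.

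In all endothelial-like cells with AngII/PE, S100a6 was 2.90-fold higher (2.68 to 3.15) after carboplatin and 2.88-fold (2.64 to 3.14) after PBS, Anxa1 2.56-fold (2.11 to 3.11) and 2.31-fold (1.89 to 2.83), and Anxa2 2.41-fold (2.26 to 2.57) and 1.82-fold (1.70 to 1.95). S100a10 was 2.24-fold (2.10 to 2.39) and 1.97-fold (1.84 to 2.11) higher. Anxa5 was not called, at 1.47-fold and 1.37-fold. Leaving out S100a8 and S100a9, which rest on single cells, 6 of 7 members were called higher after carboplatin, where 12.3% of genes were called higher and 10.4% lower, and 5 of 7 after PBS, where 10.9% were called higher and 11% lower. S100a4 did not keep 1 direction: it had 42.2 and 25.5 CPM with AngII/PE after carboplatin and PBS, against 18.1 and 38.4 CPM with saline after carboplatin and PBS. Between carboplatin and PBS, S100a4 was the 1 of 7 called, higher under AngII/PE, where 3.35% of genes were called higher and 2.69% lower, and lower under saline, where 3.03% were called higher and 4% lower. Neither call held without high doublet scores, as a mean of cells or in either sex alone.

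The endothelial shares moved the same way. Thinned to 2000 UMIs per cell, 73.0 and 63.3% of endothelial-like cells held an Anxa2 UMI with AngII/PE after carboplatin and PBS, against 43.4 and 45.3% with saline. For S100a6 the shares were 50.9 and 42.4%, against 21.4 and 16.3%. Thinning left out 34 and 21 cells with AngII/PE and 116 and 109 with saline. Beside these, the capillary marker sum was 19855 and 19571 against 16466 and 14937 CPM, venous markers 304 and 335 against 191 and 148 CPM, macrophage markers 1860 and 1200 against 1003 and 1743 CPM, and fibroblast markers 66.5 and 163 against 101 and 41.0 CPM. Whether vessel type or RNA from other cells has a part was not tested.

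**Figure D5:**
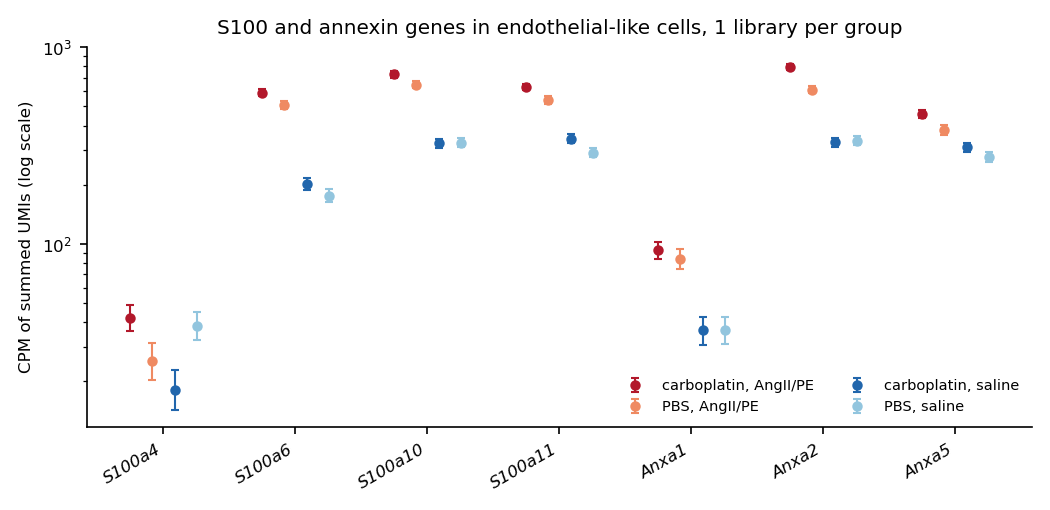
CPM of the members in endothelial-like cells of each library, with 95% Poisson intervals for counting error only. Anxa2 is at 791 and 610 CPM in the AngII/PE libraries and at 328 and 335 CPM in the saline libraries; S100a4 is low in all 4.

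Type 2 dendritic cell-like and fibroblast-like cells did not share the endothelial pattern. In dendritic cell-like cells S100a10 had 373 CPM in PBS AngII/PE, against 799 CPM in PBS saline, and Anxa2 432 against 741 CPM. These 2 of 7 were called lower and none higher, where 9.91% of genes were called lower and 9.32% higher. After carboplatin none of 7 was called with AngII/PE over saline, where 12.1% of genes were called higher and 19.6% lower. S100a10 was 1 of 7 called higher in carboplatin AngII/PE over PBS AngII/PE, where 4.11% of genes were called higher and 7.74% lower, and 0 of 7 were called in carboplatin saline over PBS saline, where 5.02% were called higher and 3.31% lower. In fibroblast-like cells S100a10 was lower with AngII/PE after both pretreatments: it had 357 CPM in carboplatin AngII/PE and 274 CPM in PBS AngII/PE, against 576 CPM in carboplatin saline and 643 CPM in PBS saline. S100a4 and Anxa1 made 3 of 7 called lower after PBS, where 14.5% of genes were. After carboplatin S100a10 was the 1 of 7 called lower, where 17.8% of genes were, and S100a4 the 1 called higher, where 14% were. S100a4 was also the 1 of 7 called between carboplatin and PBS. It was higher under AngII/PE, where 5.25% of genes were called higher and 8.45% lower, and lower under saline, where 8.16% were called higher and 7.93% lower. The dendritic cell-like and fibroblast-like classes held 119 to 189 and 70 to 106 cells per library.

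The other genes of these pathways were looked at in macrophage-like cells, to be read against the shares of all genes called with AngII/PE: 7.59% higher and 7.53% lower after carboplatin, and 8.24% higher and 9.14% lower after PBS. Of 12 receptors, 5 passed the minimum level, and Cd36, a scavenger receptor that can bind calprotectin with lipid, was the 1 called lower in both pump comparisons. It had 97.0 and 75.4 CPM with AngII/PE after carboplatin and PBS, against 339 and 368 CPM with saline. Tlr4, a calprotectin receptor, had 72.4 and 70.9 against 70.8 and 85.2 CPM, and Ager did not pass. Of 14 binding partners, 9 passed, and 3 were called lower after carboplatin and 2 after PBS, with none higher. Ahnak, a large scaffold that binds S100a10 with Anxa2, had 288 and 276 against 725 and 637 CPM, and Nes, an intermediate filament gene, 18.9 and 19.6 against 61.3 and 65.4 CPM. Both were lower in both pressor libraries than in both saline libraries.

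None of the 3 other S100 genes measured was called in any comparison, and of 5 other annexins Anxa3 alone was, at 127 CPM in carboplatin AngII/PE against 76.1 CPM in carboplatin saline. Of 7 measured genes for phosphatidylserine exposure and binding, Plscr1, a phospholipid scramblase, had 32.6 and 34.8 against 15.3 and 12.4 CPM and was called higher in both pump comparisons. Pros1, a bridging ligand, had 51.4 and 52.3 against 90.05 and 125 CPM and was called lower in both, and Gas6, another bridging ligand, was called lower after PBS, with 146 against 361 CPM.

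Of 9 measured glucocorticoid and phospholipase A2 genes, 2 were called higher and 2 lower with AngII/PE after carboplatin, and 2 higher and 3 lower after PBS; their median log2 ratios were -0.13 and 0.02. Fkbp5, a glucocorticoid-induced chaperone, had 142 and 182 against 29.8 and 59.3 CPM, and Per1, a clock gene, 44.0 and 51.0 against 28.9 and 29.6 CPM. Both were higher in both AngII/PE libraries than in both saline libraries. Nr3c1, the glucocorticoid receptor gene, had 150 and 139 against 280 and 325 CPM, and Alox5, a lipoxygenase gene, 45.3 and 35.9 against 127 and 137 CPM. Both were called lower in both comparisons, and Pla2g4a, a phospholipase A2 gene, after PBS alone.

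Of 12 genes for the cytoskeleton of monocyte-derived cells, 2 were called higher and 1 lower with AngII/PE after carboplatin, and 2 higher and 2 lower after PBS. Lgals3, a galectin gene, had 776 and 860 against 385 and 301 CPM and was called higher in both, and Crip1, of a LIM-domain protein, 548 and 575 against 1542 and 1423 CPM and was called lower in both. Tmsb10, an actin-binding peptide, was the 1 of 12 called between carboplatin and PBS, with 456 CPM in carboplatin saline against 231 CPM in PBS saline, where 1.65% of genes were called higher and 2.17% lower. In that comparison 1 of 7 phosphatidylserine genes and 1 of 9 glucocorticoid and phospholipase A2 genes were called lower. Under AngII/PE, 1 of these 9 was called lower after carboplatin, where 0.459% of genes were called higher and 0.978% lower.

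Likeness was measured as Pearson's r of log2 levels over 27 points, each a class in a library with at least 50 cells, among 7556 genes. The points share libraries and depth, so the values are descriptions. S100a11 and Anxa2 were alike at 0.91, and S100a6 and Anxa1 at 0.89. S100a8 and S100a9 were at 0.98, which rests on the few rich cells. S100a4 stood apart from Anxa2, at 0.04, and was at 0.28 with S100a6. The genes most like S100a4 were Gm2a at 0.95, Gpx1 at 0.92 and Naaa at 0.92. Qpct was most like S100a6, at 0.89, and Ggh most like Anxa5, at 0.92.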

How the data were processed

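The values are deposited UMI counts per gene and barcode for 4 libraries. Per the file headers they came from Cell Ranger 7.1.0, whereas the labels' protocols name Cell Ranger 3, mm10 and the 10x kit 3.1; the submitters' processing notes name Seurat 4. No source used here says whether reads in introns counted.

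Cells under 10% mitochondrial UMIs and 30000 UMIs, with more than 500 and fewer than 7000 genes, were kept. SCTransform (sctransform 0.4.2, Seurat 5.3.0, R 4.3.3) with 80 principal components and resolution 0.6 gave 23 clusters, named from 25 marker lists. Neither the S100 nor the annexin genes, 31 symbols, entered the clustering. UMIs were summed per class and library (Python 3.11.15, scipy 1.17.1). Intervals at the 95% level are exact Poisson, exact conditional binomial for ratios and Clopper-Pearson for shares, and cover counting error only; a share allowed by a count of 0 uses 3 counts. Genes averaging at least 10 CPM were compared and called at 1.5-fold. The ratio computation was tested on simulated data. No count model was run, since each group has 1 library. Genes named beyond the members were taken from those of the pathway lists past 1.5-fold, with the receptors of calprotectin, and from the 3 most alike per member. Only some of them are printed. Members and lists were chosen with earlier results of these data known. Alternatives changed the clustering, filters, scaling, sex, cluster and doublet handling.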

Additional observations from a re-analysis of the deposited data

Results flagged for a closer look

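The values here are log2 ratios of CPM that took opposite signs in the pair set side by side; no difference within a pair was tested, since each library is 1 pool, and no cause was tested.

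For carboplatin over PBS, the first value is under AngII/PE and the second under saline. In macrophage-like cells S100a10 was at 0.17 and -0.17. In endothelial-like cells S100a4 was at 0.73 and -1.08. Type 2 dendritic cell-like cells had S100a4 at 0.24 and -0.30, S100a6 at 0.45 and -0.22, S100a10 at 0.67 and -0.42, Anxa2 at 0.32 and -0.47 and Anxa5 at 0.30 and -0.24. Fibroblast-like cells had S100a4 at 1.28 and -0.61 and S100a10 at 0.38 and -0.16.

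For AngII/PE over saline, the first value is after carboplatin and the second after PBS. In macrophage-like cells S100a6 was at -0.069 and 0.32. Endothelial-like cells had S100a4 at 1.22 and -0.59. In type 2 dendritic cell-like cells S100a6 was at 0.29 and -0.39 and Anxa1 at 0.19 and -0.13. Fibroblast-like cells had S100a4 at 0.59 and -1.31 and S100a11 at 0.20 and -0.14.

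In macrophage-like cells called female, then in those called male, carboplatin over PBS under saline was at 0.59 and -0.18 for S100a4, 0.22 and -0.69 for S100a10, 0.48 and -0.32 for Anxa1 and 0.49 and -0.19 for Anxa2. Under AngII/PE, S100a6 was at 0.75 and -0.040. AngII/PE over saline was at -0.20 and 0.28 for S100a6 after PBS, and at -0.45 and 0.16 for S100a10 after carboplatin.

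In barcodes that failed the cell filters, which enter no comparison, S100a8 was at 46.8 CPM in carboplatin AngII/PE and 39.4 CPM in carboplatin saline, above 12.4 CPM in PBS saline. S100a9 was at 60.3 and 48.8 CPM, above 16.05 CPM. PBS AngII/PE was below PBS saline, at 8.82 CPM of S100a8 and 9.42 CPM of S100a9.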

How the results depend on the processing

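Of 590 macrophage ratios under the alternatives, 505 kept their sign; of 350 endothelial ratios, 326 did. No setting moved the median of all genes by over 0.1 (log2). No paired analysis was possible because each group has 1 library, so leaving out a replicate was not done either. Where counts of called members differed, the cause was not tested.

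In macrophage-like cells, the 1 member higher with AngII/PE after PBS became 0 at resolution 1.2, in male-called cells, in all kept cells, in all phagocytes (monocyte-, dendritic- and cycling-like cells included), and in the resident and MHC class II clusters alone. None lower became 1 at resolution 1.2, in either sex and in all phagocytes, and 6 in the MHC class II cluster. After carboplatin, 1 higher became 0 in female-called cells, in all phagocytes and in the MHC class II cluster, and 2 in male-called cells; none lower became 2 in the MHC class II cluster. For carboplatin over PBS under saline, none higher became 2 in female-called cells, 1 without cells with dendritic cell markers and 1 in the resident cluster, and none lower became 1 in male-called cells and 2 in the MHC class II cluster. Under AngII/PE, none higher became 3 in female-called cells and 1 in the interferon cluster.

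In endothelial-like cells, the 1 member lower with AngII/PE after PBS became 0 with log-normalised clustering, at least 1000 genes per cell, median-of-ratios scaling, a mean of cells, without high doublet scores, without cells rich in S100a8 and S100a9, and in either sex. For carboplatin over PBS, the 1 lower under saline and the 1 higher under AngII/PE both became 0 without high doublet scores, as a mean of cells and in either sex; in male-called cells 1 was higher under saline. Within the finer cluster 6, 5 higher with AngII/PE after PBS became 3 and 1 lower became 0. For carboplatin over PBS under AngII/PE, 1 higher became 3 there, where 14.6% of genes were called higher and 13.5% lower. Within the finer cluster 18, for carboplatin over PBS under saline, none higher became 1 and 1 lower became 0. There 32.5% of genes were called higher and 24.2% lower. The 1 higher was Anxa1, which had 1 UMI in the 54 cells of PBS saline.

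With all kept cells, S100a8 and S100a9 with AngII/PE after carboplatin turned to -1.76 and -1.67. Anxa1 with AngII/PE after PBS turned to -0.73 in the MHC class II cluster. Endothelial S100a4 with AngII/PE after PBS turned to 0.48 without high doublet scores, 0.79 in female-called cells and 0.44 in male-called cells, and to 1.21 in the finer cluster 6. Its ratio of carboplatin over PBS under saline turned to 0.14 in the finer cluster 18. Its ratio of carboplatin over PBS under AngII/PE turned to -0.0077 in male-called cells.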
